A study of Mus musculus with 6 samples.

Results

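The integrated stress response is a program by which cells under amino acid shortage, endoplasmic reticulum stress, heme shortage or other stresses slow the start of protein synthesis. Kinases that sense these stresses phosphorylate the initiation factor eIF2, and under that condition the mRNA of the transcription factor ATF4 is translated better. ATF4 with partners of the ATF and C/EBP families then turns on genes that make, import and activate amino acids, and genes that feed back on the response or act in prolonged stress.

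Described here are 36 mouse genes of that program, taken by name from a list and matched by symbol to the 24454 rows of the deposited table. All 36 had a row, and 33 reached the level needed for testing, which was at least 1 CPM (a gene's reads relative to its library's total, on a common scale) in at least 2 libraries. The genes fall into 5 roles: 7 transcription factors, 8 feedback regulators and stress effectors, 9 enzymes of amino acid and one-carbon metabolism, 5 amino acid transporters and 7 cytosolic tRNA synthetases. The 3 untested genes were Vldlr, a lipoprotein receptor, with 0 reads in all 6 libraries, Stc2, a secreted glycoprotein, with 33 reads in C40 replicate 2 and 0 to 2 reads elsewhere, and the cationic amino acid transporter gene Slc7a3, at 0.149 to 0.681 CPM.

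The cells were Py2T, an epithelial cell line derived from a mouse mammary tumour, sequenced as 6 total-RNA libraries in 3 groups of 2. Cells named PBS received 0 µM H2O2, cells named C40 received 40 µM H2O2 and cells named I60 received 60 µM H2O2, with dosing repeated daily over 4 months. The libraries of each group are described as biological duplicates. Whether they came from separately treated cultures was not given in the sources used here, so p-values measure the spread between these libraries. Each treated group is 1 line, so what H2O2 did and what differed between lines for another reason cannot be told apart, and in bulk RNA fewer cells with a transcript and less RNA per cell cannot be told apart either.

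The libraries held 48113692 to 60260520 reads. The 6 mammary epithelial markers Epcam, Cdh1, Krt8, Krt18, Krt7 and Cldn7 summed to 6693 and 7005 CPM in PBS, 3756 and 3461 in C40, and 3154 and 3091 in I60. Krt8 and Krt18 were at 1059 CPM or more in every library, while in I60 Epcam, Cdh1 and Krt7 were at 0.129 to 3.28 CPM and Cldn7 was at 0 reads, so these defining markers were nearly absent from that line. Fibroblast markers summed to 0.232 and 0.333 CPM in PBS and 37.6 to 112 CPM in the treated lines, with Lum, Fap and Thy1 at 0 reads throughout. Immune markers summed to 3.61 to 28 CPM (Adgre1 and Cd3e at 0), endothelial markers to at most 0.603 CPM and adipocyte markers to at most 0.88 CPM. The part of these markers in the results below was not tested. The C40 libraries stood further apart than those of the other groups. The difference between replicate 2 and replicate 1 on the log2 scale had an SD over the 11524 tested genes of 0.623 in C40, against 0.363 in PBS and 0.379 in I60, and 1022 genes differed over 2-fold in C40, against 223 and 217. Counts for the list are therefore also given without each C40 library. For some single genes C40 is also shown without C40 replicate 1, which leaves the group resting on C40 replicate 2 alone.

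The first question was whether the genes differed between the groups. In limma's test on log2(CPM + 0.5) with Benjamini-Hochberg adjustment over all tested genes, 0 of 33 had an adjusted p below 0.05 in C40 against PBS, where 20.2% of all tested genes did. The count was 0 of 33 in I60 against PBS, with 27.1% of all tested genes called, and 0 of 33 in I60 against C40, with 9.23% called. The lowest adjusted p by limma was 0.224 (Cebpb), 0.0679 (Aldh1l2) and 0.219 (Cebpb) in the 3 comparisons. At an unadjusted p below 0.05 limma gave 0, 1 and 1 of the 33 genes, against 35.4%, 39.4% and 22% of all tested genes. edgeR called 0 of the 33 in each comparison (1, 2 and 2 unadjusted), against 20.5%, 27% and 9.41% of all tested genes. DESeq2 called 0, 1 and 0 (3, 1 and 1 unadjusted), against 28.8%, 33.5% and 14.5%, the 1 being Sesn2 in I60 against PBS. The labels name no batch that same-numbered libraries share, so a block by replicate number was taken from these same data. It left 2 residual degrees of freedom. With this block, limma called 4, 3 and 1 of the 33, against 24.8%, 30.3% and 10.9% of all tested genes. These were Asns, Atf5 and Pck2 (higher) and Nupr1 (lower) in C40 against PBS, Sesn2 (higher), Nupr1 and Aldh1l2 (lower) in I60 against PBS, and Atf5 (lower) in I60 against C40. The median log2 difference of the 33 genes was 0.46 in C40 against PBS, 0.05 in I60 against PBS and -0.42 in I60 against C40, beside -0.02, -0.00 and 0.02 over all tested genes. C40 against PBS and I60 against PBS share the PBS libraries.

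The second question was how the libraries of a group differed. All 33 tested genes were higher in replicate 2 than in replicate 1 in PBS, in C40 and in I60. Over all tested genes, 46.5%, 46.2% and 57.7% were higher in replicate 2 of PBS, C40 and I60, and 17% were higher in all 3 groups. The median log2 difference of the 33 genes was 0.59 in PBS (from 0.07 to 2.15), 1.77 in C40 (from 0.51 to 5.58) and 0.97 in I60 (from 0.08 to 2.97), while the medians over all tested genes were -0.02, -0.04 and 0.06. More than 2-fold higher in replicate 2 were 7 of the 33 genes in PBS, 28 in C40 and 16 in I60, against 0.443%, 4.07% and 1.66% of all tested genes.

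**Figure D1:**
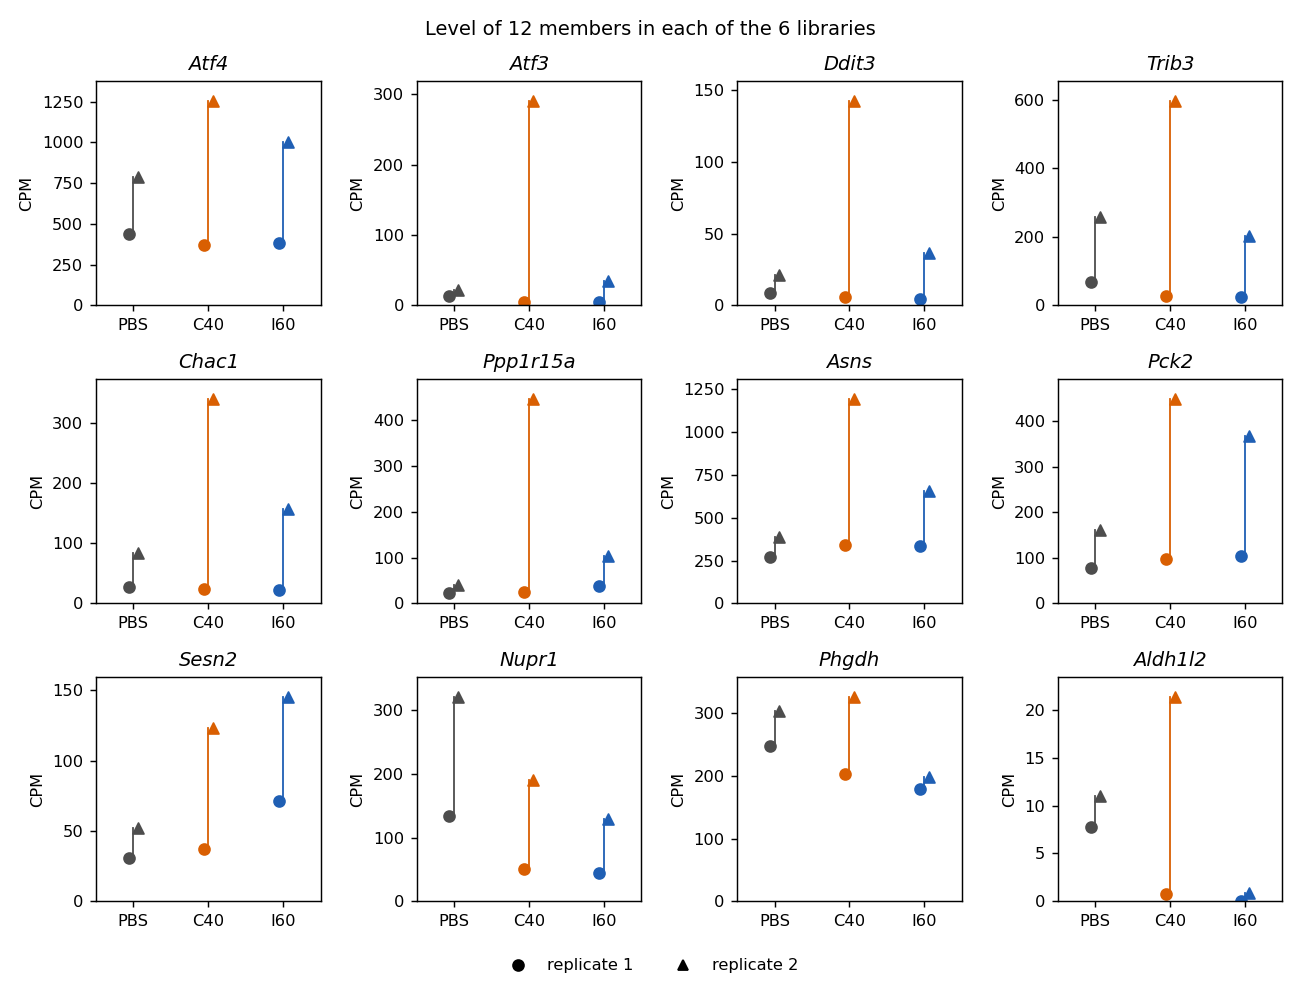
Level in CPM (linear axis from 0) of 12 of the genes in each library, with circles for replicate 1, triangles for replicate 2 and a line joining the libraries of a group. The triangle lies above the circle in every group of every gene, and the C40 triangle is the highest point in all panels except Nupr1 and Sesn2.

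C40 replicate 2 was the highest of the 6 libraries for 30 of the 33 genes, a place it held for 18.2% of all tested genes. The 3 others were Nupr1 and Ddit4, highest in PBS replicate 2, and Sesn2, highest in I60 replicate 2. The lowest library was a replicate 1 library for all 33 genes (9 in PBS, 10 in C40 and 14 in I60), against 49.7% of all tested genes. The difference between replicates was largest in C40 for 32 of 33 genes, against 30.4% of all tested genes, with Ddit4 as the exception.

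The replicate number was tested as a second term beside the group in limma, which left 2 residual degrees of freedom. No gene passed: 0 of 33, and 0 of all 11524 tested genes (0%), had an adjusted p below 0.05, with the 33 genes between 0.114 and 0.502. At an unadjusted p below 0.05 limma gave all 33 genes, against 9.72% of all tested genes. On the recovered reads, edgeR called 2 of the 33 higher in replicate 2 (Nupr1 and Slc6a9), where it called 0.0694% of all tested genes higher, and DESeq2 called 22 of the 33, where it called 1.55%; these were added after the limma result was seen. Without both PBS libraries limma called 18 of 32 genes higher (0.597% of all tested genes), without both C40 libraries 7 of 33 (0.123%), and without both I60 libraries 0 of 33 (0%). The 7 called without C40 were Atf4, Atf5, Nupr1, Trib3, Chac1, Pck2 and Slc6a9. Whether same-numbered libraries were grown, extracted or prepared together was not given in the sources used here, and what the number stands for was not tested.

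**Figure D2:**
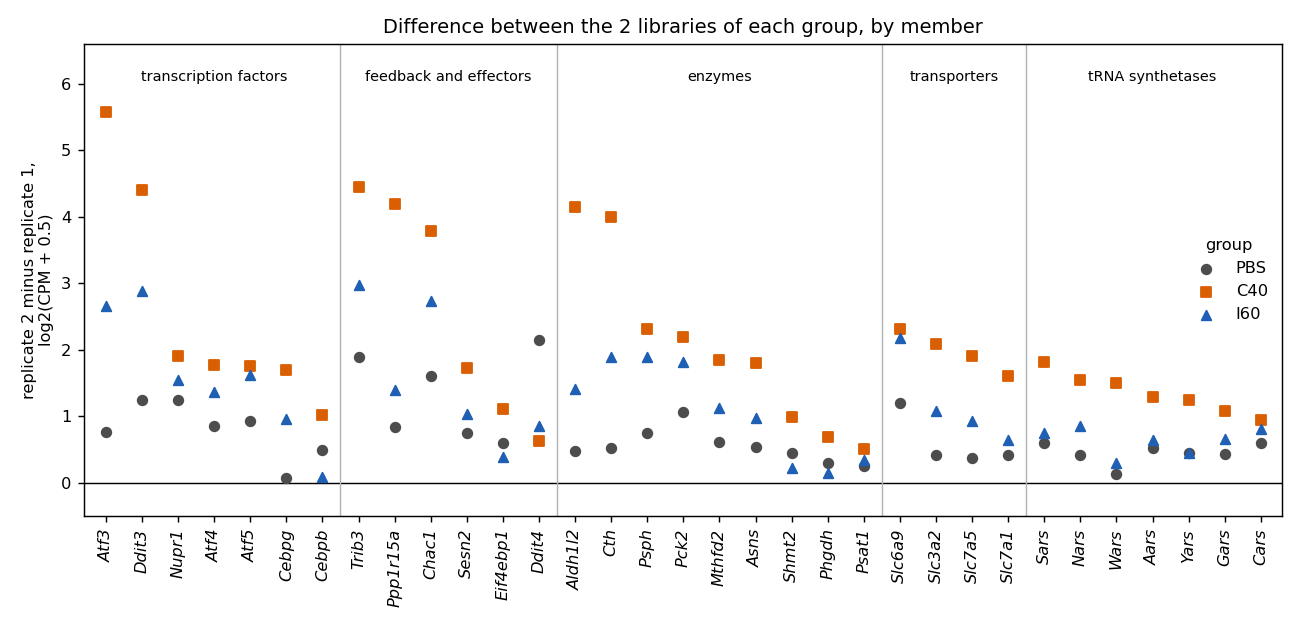
Replicate 2 minus replicate 1 on the log2(CPM + 0.5) scale for each of the 33 tested genes, grouped by role, with circles for PBS, squares for C40 and triangles for I60. All 99 points lie above 0, and the C40 square is the highest of the 3 in every gene except Ddit4.

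Promoters are shown because ATF4 with C/EBP partners is known to bind a short element, the C/EBP-ATF response element. Its core was searched as TGATGNAA on both strands in RefSeq promoters of GRCm38.p6, each running from 250 bases before to 50 bases after an annotated start. Of the 26 tested genes of the list with a promoter entry, 9 (34.6%) held the core, against 243 of 9215 tested genes with an entry (2.64%). With untested genes included, 10 of 28 genes of the list (35.7%) held it, against 4.51% of all 27025 genes in the promoter table. The 10 were Atf3, Nupr1, Trib3, Chac1, Vldlr, Asns, Pck2, Aars, Gars and Yars. A match describes the letters of the window, not binding. Many genes of the list are known ATF4 targets, so the choice of the list favours the core. Whether the core goes with the replicate difference was not tested. The stretches upstream of the start for 6 of them follow, 5′ to 3′ on the strand of the gene, with the core or its reverse complement in capitals.

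Atf3, chr1:191183410-191183469, minus strand: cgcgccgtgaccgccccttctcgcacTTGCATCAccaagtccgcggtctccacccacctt

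Nupr1, chr7:126625547-126625606, minus strand: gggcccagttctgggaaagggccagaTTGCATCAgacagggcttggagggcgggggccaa

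Chac1, chr2:119351023-119351082, plus strand: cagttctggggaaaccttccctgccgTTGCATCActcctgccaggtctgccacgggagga

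Asns, chr6:7693210-7693258, minus strand: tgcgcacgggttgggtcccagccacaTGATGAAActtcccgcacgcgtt

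Pck2, chr14:55540137-55540196, plus strand: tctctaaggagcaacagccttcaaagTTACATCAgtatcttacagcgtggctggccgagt

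Gars, chr6:55037945-55038000, plus strand: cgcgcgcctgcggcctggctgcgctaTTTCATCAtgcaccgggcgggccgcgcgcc

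The core began 110 bases before the start in Atf3 and in Nupr1, 193 in Chac1, 23 in Asns, 103 in Pck2 and 30 in Gars. Atf3, Nupr1 and Chac1 carry the same 8 letters, TTGCATCA. Pck2 and Gars, with the core in the same orientation, differ from them at its free position. Asns carries the core in the other orientation, TGATGAAA, and its reverse complement differs from TTGCATCA at the free position. The 6 genes also differed widely in how far their replicates lay apart in C40, from 1.08 on the log2 scale in Gars to 5.58 in Atf3.

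Among the 7 transcription factors, Atf4 (chromosome 15, 80255184 to 80257545), the central factor of the response, was at 438 and 788 CPM in PBS replicates 1 and 2, 368 and 1251 CPM in C40, and 386 and 1001 CPM in I60. Replicate 2 was thus 1.8, 3.4 and 2.59 times replicate 1, and the replicate 1 libraries of the 3 groups lay close to each other. The replicate coefficient was 1.33 ± 0.19 (SE; limma adjusted p = 0.139), while C40 against PBS gave 0.21 ± 0.66 (limma adjusted p = 0.85) and I60 against PBS 0.08 ± 0.66 (limma adjusted p = 0.94).

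Atf3 (chromosome 1, 191170296 to 191183333), a stress-induced factor of the same family, was at 13 and 22.3 CPM in PBS, 5.59 and 290 CPM in C40, and 5.04 and 34.6 CPM in I60. C40 replicate 2 stood above the other 5 libraries, with 15766 reads against 269 in C40 replicate 1, so the C40 libraries differed 51.9-fold and enclosed both PBS libraries. C40 against PBS was 1.26 ± 1.68 (limma adjusted p = 0.631). Without C40 replicate 1 it was 4.05, resting on C40 replicate 2 alone, and among the replicate 1 libraries it was -1.15.

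Ddit3 (chromosome 10, 127290793 to 127296291), which encodes CHOP, a factor of prolonged stress and cell death, had the same shape. Its levels were 8.59 and 21 CPM in PBS, 6.17 and 142 in C40, and 4.48 and 36.3 in I60, so that replicate 2 was 2.45, 23 and 8.11 times replicate 1. The lowest 2 libraries were the replicate 1 libraries of the treated lines and the highest 2 their replicate 2 libraries. Ddit3 overlaps Mbd6 and Mars1 in the annotation, and whether reads were counted by strand was not given in the sources used here.

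Atf5, a further factor translated under phosphorylated eIF2, was at 65.7 and 126 CPM in PBS, 101 and 345 in C40, and 45.2 and 140 in I60. Its replicate coefficient of 1.44 ± 0.19 was among the 6 with the lowest adjusted p (limma adjusted p = 0.114). C40 lay above PBS by 1.04 ± 0.70 and I60 below C40 by 1.23 ± 0.70 on the log2 scale (limma adjusted p = 0.331 and 0.378; 0.0187 and 0.0168 with the replicate block). Cebpg, a C/EBP partner of ATF4, was even between the PBS libraries (61.7 and 65 CPM) and apart in C40 (45.6 and 149) and I60 (46.9 and 91.5).

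Cebpb, another C/EBP partner, was at 45.8 and 64.6 CPM in PBS, 59.9 and 121 in C40, and 46.6 and 49.3 in I60, and was nearly even between the I60 libraries. Both I60 libraries lay below both C40 libraries, by 0.82 on the log2 scale on average, which did not pass (limma adjusted p = 0.219). Without C40 replicate 1 the difference was -1.33, resting on C40 replicate 2 alone, and among the replicate 1 libraries it was -0.36.

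Nupr1 (chromosome 7, 126623246 to 126625470), a small stress-induced chromatin protein, was at 134 and 320 CPM in PBS, 50.7 and 191 in C40, and 44.2 and 130 in I60. Replicate 2 was 2.38, 3.77 and 2.94 times replicate 1, the most even ratio of the group, and the level was lower in both treated lines than in PBS within each replicate number. Both I60 libraries lay below both PBS libraries, with a log2 difference of -1.45 ± 0.75 (limma adjusted p = 0.202; 0.00193 with the replicate block). C40 against PBS was -1.07 ± 0.75 (limma adjusted p = 0.348; 0.00954 with the replicate block). Within replicate numbers 1 and 2 the differences were -1.60 and -1.30 in I60, and -1.40 and -0.74 in C40.

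Among the feedback regulators, Trib3 (chromosome 2, 152337425 to 152344060), a pseudokinase that restrains ATF4 and CHOP, was at 69.6 and 259 CPM in PBS, 26.7 and 595 in C40, and 25.4 and 203 in I60. Replicate 2 was 3.72, 22.2 and 7.98 times replicate 1, and the replicate coefficient of 3.10 ± 0.42 (limma adjusted p = 0.114) was the largest of the 33. The replicate 1 libraries of both treated lines were lower than either PBS library, whereas C40 replicate 2 was the highest of all, and C40 against PBS came to -0.08 ± 1.53 (limma adjusted p = 0.974).

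Ppp1r15a (GADD34), the phosphatase subunit that reverses eIF2 phosphorylation, was at 22.6 and 40.4 CPM in PBS, 23.9 and 446 in C40, and 39 and 104 in I60. C40 replicate 1 was level with PBS replicate 1, and C40 replicate 2 was 18.6 times as high. Without C40 replicate 1 the difference from PBS was 3.86, resting on C40 replicate 2 alone, and among the replicate 1 libraries it was 0.08. With both C40 libraries it was 1.77 ± 1.22 (limma adjusted p = 0.339).

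Chac1, an enzyme that degrades glutathione, was at 26.9 and 83.3 CPM in PBS, 24.2 and 340 in C40, and 23.1 and 157 in I60. Its replicate 1 libraries spanned 23.1 to 26.9 CPM over the 3 groups, and its replicate 2 libraries 83.3 to 340 CPM. The replicate coefficient was 2.71 ± 0.37 (limma adjusted p = 0.114).

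Sesn2 (chromosome 4, 132492804 to 132510456), a sestrin that restrains mTORC1 signalling when leucine is short, was at 31 and 52.1 CPM in PBS, 37 and 123 in C40, and 71.1 and 145 in I60. It was the 1 gene of the 33 tested whose I60 libraries both lay above both PBS libraries. The difference was 1.33 ± 0.59 (limma adjusted p = 0.145). Leaving out a C40 library keeps the same I60 and PBS libraries in this comparison, so it is no test apart from those libraries alone. The call was made by DESeq2 (adjusted p = 0.0441), by limma on the I60 and PBS libraries alone (0.0219) and by limma with the replicate block (0.00825). Over all alternatives its adjusted p ran from 0.00825 to 0.519.

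Ddit4 (REDD1), another inhibitor of mTORC1, broke the pattern of size. It was at 91.2 and 405 CPM in PBS, 174 and 270 in C40, and 215 and 386 in I60, so the PBS libraries lay furthest apart (4.44-fold) and the C40 libraries nearest (1.55-fold). Eif4ebp1, which holds back cap-dependent translation, was at 211 and 320 CPM in PBS, 249 and 537 in C40, and 234 and 307 in I60.

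Among the 9 enzymes the replicate difference in C40 ran from 0.51 (Psat1) to 4.15 (Aldh1l2) on the log2 scale. Asns (chromosome 6, 7675165 to 7693209), asparagine synthetase, was at 270 and 389 CPM in PBS, 342 and 1191 in C40, and 336 and 659 in I60. Both replicate 1 libraries of the treated lines lay between the PBS libraries, and both replicate 2 libraries above them. C40 against PBS was 0.98 ± 0.58 (limma adjusted p = 0.273, and 0.0481 with the replicate block). Without C40 replicate 1 it was 1.88, resting on C40 replicate 2 alone, and among the replicate 1 libraries it was 0.34.

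Pck2, the mitochondrial phosphoenolpyruvate carboxykinase, was at 76.7 and 161 CPM in PBS, 97.7 and 448 in C40, and 104 and 367 in I60. Cth, which makes cysteine from cystathionine, was at 7.39 and 10.8 CPM in PBS, 4.55 and 79.7 in C40, and 9.29 and 35.8 in I60, a 17.5-fold gap between the C40 libraries. In both genes the replicate 2 libraries of C40 and I60 were the 2 highest. For Pck2, C40 against PBS was 0.91 ± 0.83 (limma adjusted p = 0.468; 0.0473 with the replicate block).

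Aldh1l2 (chromosome 10, 83487447 to 83534146), a mitochondrial folate enzyme, was the gene with the lowest adjusted p in I60 against PBS. It was at 7.79 and 11 CPM in PBS, 0.727 and 21.3 in C40, and 0 and 0.829 in I60, or 445, 663, 35, 1156, 0 and 45 reads. Both I60 libraries and C40 replicate 1 held under 1 CPM, and the other 3 libraries at least 7.79 CPM. The difference from PBS was -3.58 ± 1.20 (limma adjusted p = 0.0679), and with a pseudocount of 0.1 or 1 in place of 0.5 CPM it was -4.94 or -2.92. The I60 difference was called by limma on the I60 and PBS libraries alone (adjusted p = 0.000488) and with the replicate block (0.0132). Leaving out a C40 library keeps those same libraries and gives no separate test. edgeR, DESeq2 and limma voom did not call the difference (adjusted p = 0.0831, 0.155 and 0.091), nor did limma without a PBS or I60 library. In C40 the sign depended on the library: against PBS, replicate 1 was -2.76 and replicate 2 0.92 on the log2 scale when libraries of the same number were compared.

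The serine pathway is a chain of 3 enzymes, Phgdh, Psat1 and Psph, whose product feeds Shmt2 and Mthfd2 in mitochondrial one-carbon metabolism. Phgdh (chromosome 3, 98313171 to 98339969), its entry enzyme, was at 247 and 304 CPM in PBS, 203 and 325 in C40, and 179 and 198 in I60. Both I60 libraries lay below those of PBS and of C40, by 0.54 ± 0.25 and 0.45 ± 0.25 on the log2 scale (limma adjusted p = 0.153 and 0.356). The difference of I60 from PBS was called by limma on the I60 and PBS libraries alone (adjusted p = 0.0333). Leaving out a C40 library keeps those same libraries and gives no separate test. edgeR, DESeq2, limma voom and limma with the replicate block did not call the difference (adjusted p = 0.174, 0.144, 0.176 and 0.0625). Nor did limma without a PBS or I60 library.

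Psat1 was the most even of the 33 genes in C40, at 768 and 915 CPM in PBS, 759 and 1078 in C40, and 653 and 825 in I60. Psph, the last enzyme of the chain, was at 58.2 and 98.3 CPM in PBS, 43.7 and 219 in C40, and 28.4 and 106 in I60, ratios of 1.69, 5.01 and 3.75. The chain thus did not move evenly between libraries: replicate 2 minus replicate 1 in C40 was 0.68 for Phgdh, 0.51 for Psat1 and 2.31 for Psph. Psph overlaps Cct6a in the annotation.

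Shmt2, which splits serine to give one-carbon units, was at 584 and 794 CPM in PBS, 614 and 1213 in C40, and 756 and 879 in I60. Mthfd2, which oxidises these units, was at 188 and 288 CPM in PBS, 122 and 439 in C40, and 130 and 283 in I60. For Mthfd2 the treated lines' replicate 1 libraries were the 2 lowest of all and C40 replicate 2 was the highest.

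Of the 4 tested transporters, Slc7a5 and Slc3a2 encode the partners of the LAT1 carrier of large neutral amino acids. Slc7a5 was at 346 and 448 CPM in PBS, 318 and 1192 in C40, and 410 and 780 in I60, and Slc3a2 at 195 and 260, 221 and 946, and 230 and 485. The ratios of replicate 2 to replicate 1 were alike for both partners: 1.3 and 1.33 in PBS, 3.75 and 4.27 in C40, and 1.9 and 2.11 in I60. With both C40 libraries neither was called in C40 against PBS (limma adjusted p = 0.477 and 0.306). Without C40 replicate 1 the differences were 1.60 and 2.07, resting on C40 replicate 2 alone. Among the replicate 1 libraries they were -0.12 and 0.19.

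Slc6a9, a glycine transporter, was at 40 and 92.5 CPM in PBS, 49.5 and 248 in C40, and 35.5 and 162 in I60. Its replicate coefficient of 1.89 ± 0.23 (limma adjusted p = 0.114) was 1 of the 2 that edgeR called (adjusted p = 0.0336), the other being Nupr1 (0.0328). Slc7a1, a carrier of arginine and lysine, was at 448 and 594 CPM in PBS, 265 and 805 in C40, and 505 and 789 in I60, with C40 replicate 1 the lowest library and C40 replicate 2 the highest.

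The 7 tRNA synthetases, which load amino acids onto tRNAs for translation, had the lowest median replicate difference of the 5 roles in C40 and I60. Their median difference was 0.45 in PBS, 1.29 in C40 and 0.66 in I60, and 0, 6 and 0 of 7 were over 2-fold higher in replicate 2. Sars, for serine, had the widest C40 gap, at 293 and 1038 CPM, against 328 and 493 in PBS and 370 and 616 in I60. Cars, for cysteine, had the narrowest, at 212 and 406 CPM, against 217 and 328 in PBS and 205 and 360 in I60.

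Nars, for asparagine, was at 418 and 558 CPM in PBS, 416 and 1208 in C40, and 394 and 710 in I60. Aars, for alanine, was at 455 and 653, 422 and 1031, and 389 and 606 CPM, and Gars, for glycine, at 500 and 674, 479 and 1012, and 538 and 851 CPM. In these 3 genes the replicate 1 libraries of the groups lay closer together than the replicate 2 libraries, and C40 replicate 2 stood above the other 5 libraries.

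Wars, for tryptophan, was even between the PBS libraries (141 and 154 CPM) and near so in I60 (129 and 158), and C40 replicate 2 stood apart from the other 5 (127 and 360 in C40). Yars, for tyrosine, was at 161 and 219 CPM in PBS, 130 and 309 in C40, and 136 and 186 in I60. By role, the medians of replicate 2 minus replicate 1 in PBS, C40 and I60 were 0.85, 1.77 and 1.55 for the transcription factors and 1.22, 2.75 and 1.21 for the feedback regulators and effectors. They were 0.52, 1.85 and 1.12 for the enzymes and 0.41, 2.0 and 1.0 for the transporters.

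Because libraries of the same number lay on the same side in every group, each group difference was also taken within a replicate number. In the replicate 1 libraries 11 of 33 genes were higher in C40 than in PBS, with a median log2 difference of -0.12, beside 48.4% and -0.03 over all tested genes. In the replicate 2 libraries 31 of 33 were higher, with a median of 1.11, beside 49.8% and -0.00. The median of the list in C40 thus lay near that of all tested genes in replicate 1 and above it in replicate 2. Single genes did not all change sign: Asns was higher in both (0.34 and 1.61) and Nupr1 lower in both (-1.40 and -0.74).

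The gap between replicate numbers was smaller in I60 against PBS. There 14 of 33 genes were higher (median -0.12) in the replicate 1 libraries and 22 of 33 (median 0.32) in the replicate 2 libraries. Of all tested genes 46.9% and 53.7% were higher. In I60 against C40, 16 of 33 were higher within replicate 1 (median -0.03) and 2 of 33 within replicate 2 (median -0.75), beside 47% and 53.8%. The 2 were Ddit4 and Sesn2. Each of these values is a difference between 2 libraries and has no replicate check.

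**Figure D3:**
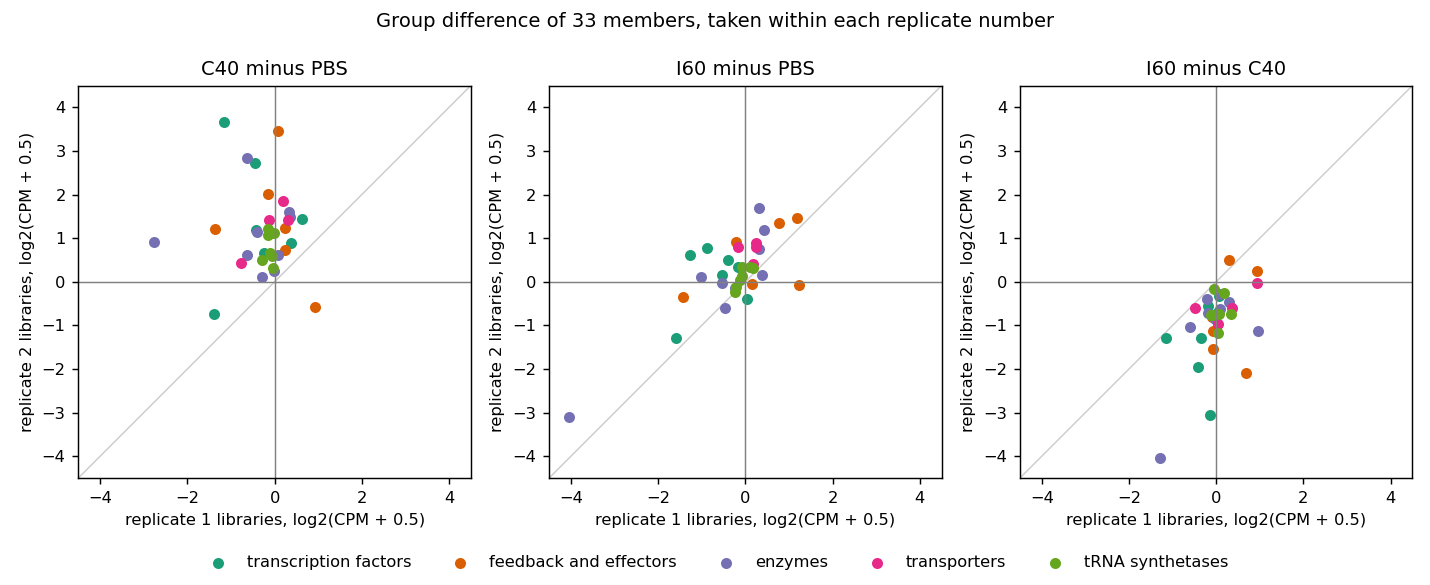
Each panel plots, for the 33 tested genes coloured by role, a group difference among the replicate 1 libraries (x axis) against the same difference among the replicate 2 libraries (y axis), both on the log2(CPM + 0.5) scale with the diagonal drawn. In C40 minus PBS 31 of 33 points lie above 0 on the y axis and 11 to the right of 0 on the x axis, and in I60 minus C40 only 2 lie above 0 on the y axis.

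Leaving out a C40 library gave a similar gap, which rests on the same C40 and PBS libraries and is not a second observation. Without C40 replicate 1, limma's count for C40 against PBS was 16 of 33 genes higher and 0 lower, where 14.7% of all tested genes were called higher, and the median difference was 1.29. The 16 were Atf3, Atf5, Cebpb, Cebpg, Ddit3, Ppp1r15a, Sesn2, Eif4ebp1, Asns, Cth, Shmt2, Slc7a5, Slc3a2, Sars, Nars and Wars, which cover all 5 roles. Without C40 replicate 2, it called 0 higher and 1 lower (Aldh1l2, at -2.99), where 8.58% of all tested genes were called lower, and the median difference was -0.33. In I60 against C40 the calls were 8 lower without C40 replicate 1 (Atf3, Cebpb, Ppp1r15a, Phgdh, Aldh1l2, Slc3a2, Wars and Yars), where 7.97% of all tested genes were called lower, and 1 higher (Slc7a1) without C40 replicate 2, where 3.87% were called higher. A lone C40 library is assumed in these fits to vary like the other groups.

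In no comparison did most of the genes separate the groups. The libraries of C40 and PBS overlapped for all 33 genes, whereas they did not overlap for 62.7% of all tested genes. I60 and PBS did not overlap for 4 of 33 (Sesn2 higher, with Nupr1, Phgdh and Aldh1l2 lower), against 70.6% of all tested genes. I60 and C40 did not overlap for 2 of 33 (Cebpb and Phgdh, both lower in I60), against 48.8%.

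Other genes of the pathway were taken from lists drawn up around it. Over all 11524 tested genes limma called 1293 higher and 1040 lower in C40 against PBS. In I60 against PBS it called 1607 higher and 1515 lower, and in I60 against C40 404 higher and 660 lower. The calls below stand beside these counts. The sensors and targets of the upstream step, 17 genes for eIF2 kinases, eIF2, eIF2B and their regulators, had medians of replicate 2 minus replicate 1 near 0, at -0.15 in PBS, -0.05 in C40 and -0.08 in I60, and 3 of 17 higher in replicate 2 in all groups. The kinase gene Eif2ak3 (PERK) was at 32.4 and 42.3 CPM in PBS, 26.9 and 28.3 in C40, and 28.7 and 41.1 in I60. In the group comparisons 1 of 17 was called, Eif2b2, a subunit of the exchange factor eIF2B, higher in C40 than PBS by 0.71 ± 0.20 (limma adjusted p = 0.0471), a call lost (adjusted p up to 0.282) when any 1 library other than C40 replicate 1 was left out, and also with edgeR, limma voom, TMM scaling, the 5 CPM filter, no filter or the 2 groups alone. mRNA levels do not report the phosphorylation state of eIF2.

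Other targets of the response were mostly higher in replicate 2 too. Of 19 such genes 18 were tested, 14 of them were higher in replicate 2 in all groups, and the medians were 0.36, 1.17 and 0.66. Gadd45a, a stress and DNA damage gene chosen here after its values were seen, was at 8.02 and 16.6 CPM in PBS, 10.5 and 172 in C40, and 4.98 and 48.6 in I60. In C40 against PBS 1 of 18 rose (Sqstm1, the autophagy receptor p62) and 1 fell (Tnfrsf10b, a TRAIL death receptor). Sqstm1 went from 450 and 641 CPM to 1055 and 3349 CPM (1.81 ± 0.51, limma adjusted p = 0.047), a call lost (adjusted p up to 0.257) when any PBS or I60 library was left out, with no filter on low values or with the 2 groups alone.

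Tnfrsf10b did not follow the replicate number, at 85.1 and 80 CPM in PBS, 46.9 and 40.7 in C40, and 143 and 127 in I60. It fell by 0.91 on the log2 scale in C40 (limma adjusted p = 0.0105) and rose by 0.71 in I60 (0.0214), calls lost when any PBS library or, in I60, any I60 library was left out (adjusted p up to 0.106 and 0.136). I60 against C40 was 1.62 ± 0.17 (limma adjusted p = 0.00159) and stayed called in all alternatives. Sesn3, a sestrin like Sesn2, also rose in I60, by 1.26 ± 0.36 (limma adjusted p = 0.0396), which was lost in those 4 cases and with no filter on low values (up to 0.204).

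Of the 13 other cytosolic tRNA synthetases 5 were higher in replicate 2 in all groups, with medians of 0.02 in PBS, 0.54 in C40 and 0.32 in I60. Vars, for valine, rose in both lines, from 263 and 306 CPM in PBS to 419 and 562 in C40 (0.77 ± 0.19, limma adjusted p = 0.0315) and 511 and 480 in I60 (0.80 ± 0.19, limma adjusted p = 0.0217), but neither call held when any PBS or I60 library was left out, nor that of C40 without C40 replicate 2, with no filter or with the 2 groups alone (adjusted p up to 0.233 and 0.167). The other 12 were not called in any comparison.

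The 17 mitochondrial tRNA synthetases had replicate medians of 0.02, -0.02 and -0.02. Pars2, for proline, rose in I60, from 10.6 and 12.8 CPM in PBS and 30.6 and 19.3 in C40 to 155 and 143 in I60. I60 differed by 3.62 ± 0.26 from PBS (limma adjusted p = 9.89e-05) and by 2.59 ± 0.26 from C40 (limma adjusted p = 0.00129), and both calls held in all alternatives. C40 against PBS was 1.03 ± 0.26 (limma adjusted p = 0.0327), a call lost (up to 0.209) when any 1 library other than C40 replicate 2 was left out, with no filter or with the 2 groups alone. In I60 against PBS 2 of 17 rose (Pars2 and Fars2) and 2 fell (Yars2 and Iars2, the last named after its values were seen). Fars2, Yars2 and Iars2 lost their calls without either of the PBS libraries or I60 replicate 2, and Fars2 and Iars2 also without I60 replicate 1, and Iars2 also with edgeR or no filter (limma adjusted p up to 0.213, 0.126 and 0.216).

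Of 20 other enzymes of one-carbon, proline and transamination metabolism 18 were tested, with replicate medians of 0.10, 0.16 and 0.10. Gpt2, an alanine transaminase and known ATF4 target that was also chosen after its values were seen, was at 36.1 and 110 CPM in PBS, 28.4 and 288 in C40, and 15.2 and 149 in I60. None was called in C40 against PBS. In I60 against PBS 2 of 18 fell, Mthfd2l, a paralog of Mthfd2 (-1.36 ± 0.24, limma adjusted p = 0.00574), and Bcat1, a branched-chain transaminase (-1.22 ± 0.35, limma adjusted p = 0.0408), calls lost without PBS replicate 1 or I60 replicate 1 and, for Bcat1, also without PBS replicate 2 or I60 replicate 2 or with no filter (adjusted p up to 0.0548 and 0.206). The 1 that rose was Cbs, which makes cystathionine and is named after its values were seen, from 0.175 and 0.0996 CPM in PBS to 2.25 and 3.28 CPM in I60. Of 19 other amino acid transporters 10 were tested and 0 were called, and 5 of the 10 were higher in replicate 2 in all groups (medians 0.24, 0.39 and 0.51).

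The unfolded protein response of the endoplasmic reticulum, whose chaperone branches run mainly through ATF6 and XBP1, was set beside the list. Whether ATF4 acts on single genes of it was not tested. Of its 18 genes 5 were higher in replicate 2 in all groups, and the medians were -0.06, -0.10 and 0.10. Herpud1, an endoplasmic reticulum degradation factor chosen after its values were seen, was among the 5, at 24.6 and 54.6 CPM in PBS, 47 and 125 in C40, and 46.4 and 139 in I60.

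The chaperone gene Hspa5 (BiP) was at 732 and 686 CPM in PBS, 534 and 1224 in C40, and 705 and 905 in I60. In C40 against PBS 3 of 18 fell and 0 rose, where limma called 1040 of all 11524 tested genes lower. The 3 were the chaperone Hsp90b1 by 1.28 (limma adjusted p = 0.0136), Sdf2l1 by 1.43 (0.0128) and Dnajb11 by 0.84 (0.0471). In I60 against PBS 2 of 18 fell and 0 rose, where limma called 1515 of all 11524 tested genes lower. The 2 were Sdf2l1 by 1.27 (limma adjusted p = 0.0155) and Hyou1 by 0.76 (0.028). Each of these calls was lost without PBS replicate 1, and all but that of Hsp90b1 also without PBS replicate 2. Those in I60 were lost without either I60 library as well, and that of Dnajb11 without C40 replicate 2 or either I60 library. The Hyou1 call was also lost with no filter on low values, and that of Dnajb11 with no filter, the 5 CPM filter, edgeR or the 2 groups alone, with adjusted p up to 0.276.

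**Figure D4:**
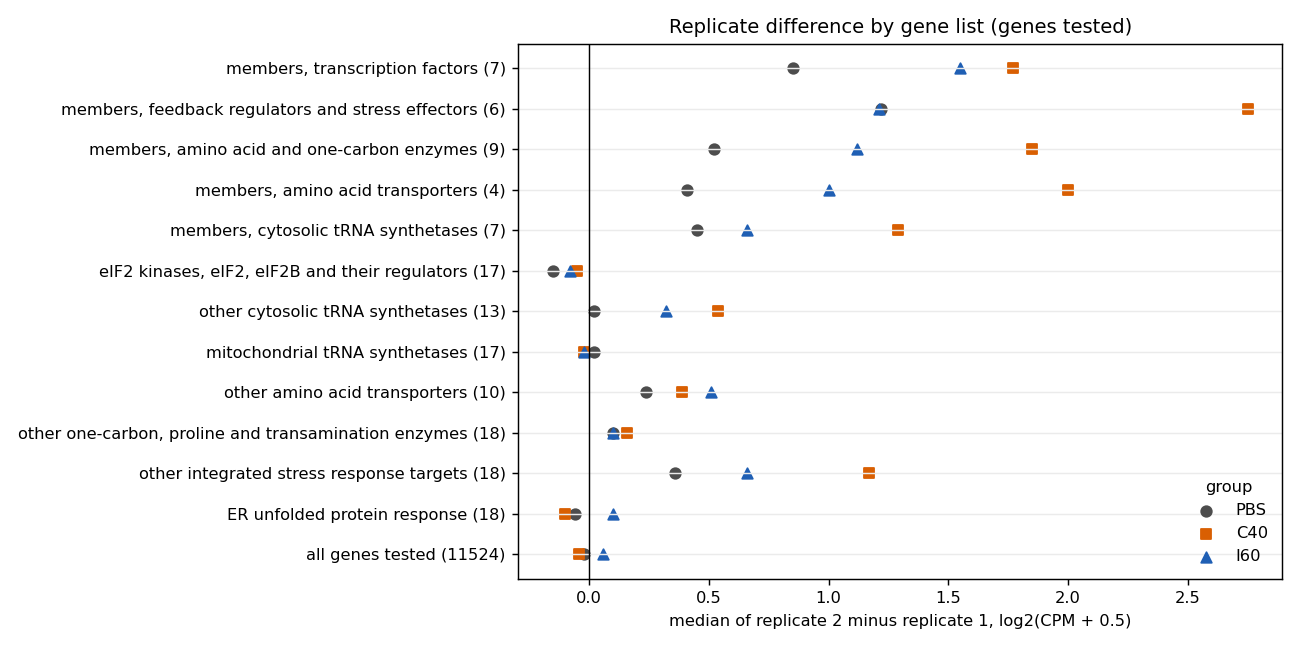
Median of replicate 2 minus replicate 1 on the log2(CPM + 0.5) scale for each role of the 33 genes and for each other list, with the number of genes tested in parentheses and circles for PBS, squares for C40 and triangles for I60. The medians of the 5 roles run from 0.41 to 2.75. Those of the eIF2 list, the mitochondrial synthetases, the unfolded protein response and all tested genes stay between -0.15 and 0.10. In PBS, C40 and I60, other targets of the response are at 0.36, 1.17 and 0.66, and other cytosolic synthetases at 0.02, 0.54 and 0.32. Other amino acid transporters are at 0.24, 0.39 and 0.51, and the other enzymes at 0.10, 0.16 and 0.10.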

How the data were processed

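Total RNA of 6 Py2T libraries (3 groups of 2) was sequenced as single reads after ribosomal RNA depletion, per the labels' protocols, which describe the depletion with 2 different kits. STAR and mm10 were used, per the submitters' processing notes. The counting program, annotation and strand setting were not given in the sources used here. Values in the deposited table are CPM as the authors computed them, 1 row per Entrez gene (24454 rows, 24374 matched to a symbol in the RefSeq annotation of GRCm38.p6; 0 rows of mitochondrially encoded genes). All values (100%) were whole multiples of the value of 1 read within a tolerance of 0.01, so whole reads were recovered (48113692 to 60260520 per library; 1 read equals 0.0166 to 0.0208 CPM) for edgeR and DESeq2.

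The 11524 genes that reached 1 CPM in 2 or more libraries were tested with limma 3.58.1 (R 4.3.3) on log2(CPM + 0.5), with its trend option, two-sided, fitting the 3 groups in 1 model of all 6 libraries. This left 3 residual degrees of freedom. P-values were adjusted by Benjamini-Hochberg, and a call is an adjusted p below 0.05. Fold changes are on that scale, which understates changes of low genes. I60 against C40 is also the test of a difference between the lines' effects. The replicate number was tested as a second term, which is also the replicate block. The labels name no batch that a number shares. Across all tested genes, which are not independent replicates, the differences between replicates correlated at 0.154 (PBS and C40), 0.105 (PBS and I60) and 0.438 (C40 and I60). Each was over 0.1, but those with PBS were low and do not establish that PBS libraries pair with same-numbered treated libraries. The pairing comes from the data alone, and blocked values are given where they change a call. The fits were tested on simulated data. Alternatives were pseudocounts, filters, TMM scaling, edgeR 4.0.16, DESeq2 1.42.0, limma voom, the 2 groups alone, the replicate block and each library left out. The members and lists were chosen with earlier results of these data known. All members are named; of other lists, calls are named by size (up to 3 per list and comparison, at least 5 CPM in the higher group, libraries not overlapping), with exceptions stated. Of the 36 genes, 10 overlap another coding gene in the annotation (Atf5, Ddit3, Cebpg, Ppp1r15a, Psph, Shmt2, Slc7a3, Slc6a9, Aars and Wars), so reads of both may not be separable.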

Additional observations from a re-analysis of the deposited data

Results flagged for a closer look

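The effect against PBS differed between the lines for 4 genes of the pathway lists, by limma's test of I60 against C40: Pars2 (2.59 on the log2 scale, I60 minus C40), Cbs (2.66), Tnfrsf10b (1.62) and Bcat1 (-1.52). Cbs was at 0 and 0.0184 CPM in C40 and 2.25 and 3.28 CPM in I60, so its difference depends on the pseudocount. The Bcat1 difference (limma adjusted p = 0.0397) was lost when any PBS or I60 library was left out, with no filter on low values or with the 2 groups alone, with adjusted p up to 0.275.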

How the results depend on the processing

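In the group comparisons 0 of the 33 genes were called with either pseudocount, either filter, TMM scaling, edgeR or limma voom. The counts changed to 1 in I60 against PBS with DESeq2 and to 3 with the 2 groups alone. Fits of I60 against PBS without 1 C40 library rest on those same I60 and PBS libraries and are no separate tests. Leaving out 1 library at a time gave 0 to 16 calls in C40 against PBS, 0 to 3 in I60 against PBS and 0 to 8 in I60 against C40. With the replicate block the counts were 4, 3 and 1 in these comparisons, and the block changed no other call on the 33 genes. For the replicate number the counts were 18 without both PBS libraries, 7 without both C40 libraries, 2 with edgeR and 22 with DESeq2. The cause of these changes was not tested. No called value changed sign; among values called in neither fit the sign changed 50 times in C40 against PBS, 39 in I60 against PBS, 48 in I60 against C40 and 0 for the replicate number.

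With 2 libraries a group, 1 library can decide a call, and at 1 read per 0.0166 to 0.0208 CPM counting error is small for genes above 1 CPM.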
